A study of Mus musculus with 12 samples.

Results

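The 10 genes described here act in the paraxial mesoderm, the tissue on both sides of the neural tube that is cut into somites. They are Pax3, Meox1, Meox2, Tcf15 and Pax1, which encode transcription factors of formed somites, and Hes7, Lfng, Dll3, Mesp2 and Ripply2, which act in the clock and the boundary machinery that cut the tissue. They were chosen by gene symbol, as every probe set (a group of short array probes for a transcript) whose only symbol was a member's. This gave 15 probe sets of 45037 on the array. Pax3 had 3 probe sets, Pax1, Lfng and Meox2 had 2 each, and the other 6 genes had 1.

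Each array held RNA of cells from mouse embryos at embryonic day 8.0, of a mixed C57BL/6 and FVB line, that were released with trypsin and sorted for the yellow fluorescent protein EYFP. The 4 groups of 3 arrays were EYFP positive cells of ER71 mutant embryos, EYFP negative cells of ER71 mutant embryos, EYFP positive cells of ER71 wildtype embryos and EYFP negative cells of ER71 wildtype embryos, called mutant positive, mutant negative, wild-type positive and wild-type negative cells here. ER71, now named Etv2, encodes an ETS-family transcription factor that blood and endothelial cells need to form. The labels do not give the mutant allele, the sequences that drive EYFP or whether a group's 3 samples were separate embryos or pools. The p-values thus set each difference only against the spread among these samples, and how far that spread is technical is not known. All RNA was amplified in 2 rounds.

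Somites bud off in pairs from the front of the presomitic mesoderm, which lengthens at the tail end. In the presomitic mesoderm, Notch, Wnt and FGF pathway genes are switched on and off in cycles, and the Hes7 repressor closes the Notch part of the cycle. At the front, Mesp2 and Ripply2 set the next boundary, and the new somite then divides into sclerotome, the source of vertebrae and ribs, and dermomyotome, the source of muscle and dermis. Pax3, Dll3 and Lfng are also used outside the paraxial mesoderm, Pax3 in the dorsal neural tube and neural crest and the other two in the neural tube.

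The values are log2 expression values on a scale on which array medians lay between 6.98 and 7.06. Etv2 itself had 7.40, 7.26 and 7.28 on the mutant positive arrays and 10.72, 10.70 and 11.36 on the wild-type positive arrays. Both wild-type arrays numbered 1 differed from the other 10 arrays in Eif2s3y, a Y-linked gene, with 10.81 in positive and 11.23 in negative cells against 4.11 to 4.53 elsewhere. Afp, a yolk sac endoderm gene, was at 11.98 on mutant positive array 1, while the other two arrays of that group had 5.02 and 4.03. Hbb-y, an embryonic globin gene, was at 11.55 on mutant negative array 2, against 5.01 and 4.71 on that group's other arrays. On wild-type negative arrays 1, 2 and 3 it was at 10.80, 5.59 and 11.94. The 3′ over 5′ excess of the actin control probe sets, which grows as RNA shortens, was 1.53 ± 0.11 log2 in mutant positive, 2.26 ± 0.43 in mutant negative, 2.40 ± 0.78 in wild-type positive and 2.21 ± 0.82 in wild-type negative cells (SD, n = 3 each). Its part in the results was not tested.

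The first comparison asked how the 10 genes differed between positive and negative cells of the same genotype. At the brightest probe set, all 10 genes had estimates below 0 in both genotypes. Pax3, Hes7 and Dll3 fell past the threshold in positive cells of both genotypes, Tcf15 and Meox2 in wild types, and Ripply2 and Lfng in mutants. Whether a difference depended on genotype is tested further below, and no member passed that test. No member was higher past the threshold in either genotype. In mutants 7 of 15 probe sets, from Pax3, Hes7, Dll3, Ripply2 and Lfng, fell past the threshold (limma, Benjamini-Hochberg adjusted p under 0.05), where 2.62% of all probe sets were called in either direction and 1.07% were lower. In wild types 8 of 15, from Pax3, Tcf15, Meox2, Hes7 and Dll3, fell past the threshold, where 4.48% of all probe sets were called and 1.72% were lower. The mutant count was 4 when only the mutant arrays were fitted, and the wild-type count was 5 of 15 without both wild-type arrays numbered 1. Counted by gene, 5 of 10 passed in wild types at the brightest probe set, and 5 of 10 with the mean of all probe sets per gene. The median log2 difference of the 15 probe sets was -0.65 in mutants, against -0.029 over all probe sets, and -1.10 in wild types, against -0.010 over all probe sets. The arrays of positive cells lay wholly below those of negative cells at 10 of 15 probe sets in mutants, where 9.24% of all probe sets did so, and at 13 of 15 in wild types, where 11% did so. In sorted fractions, fewer cells of a type and less RNA per cell cannot be told apart.

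**Figure D1:**
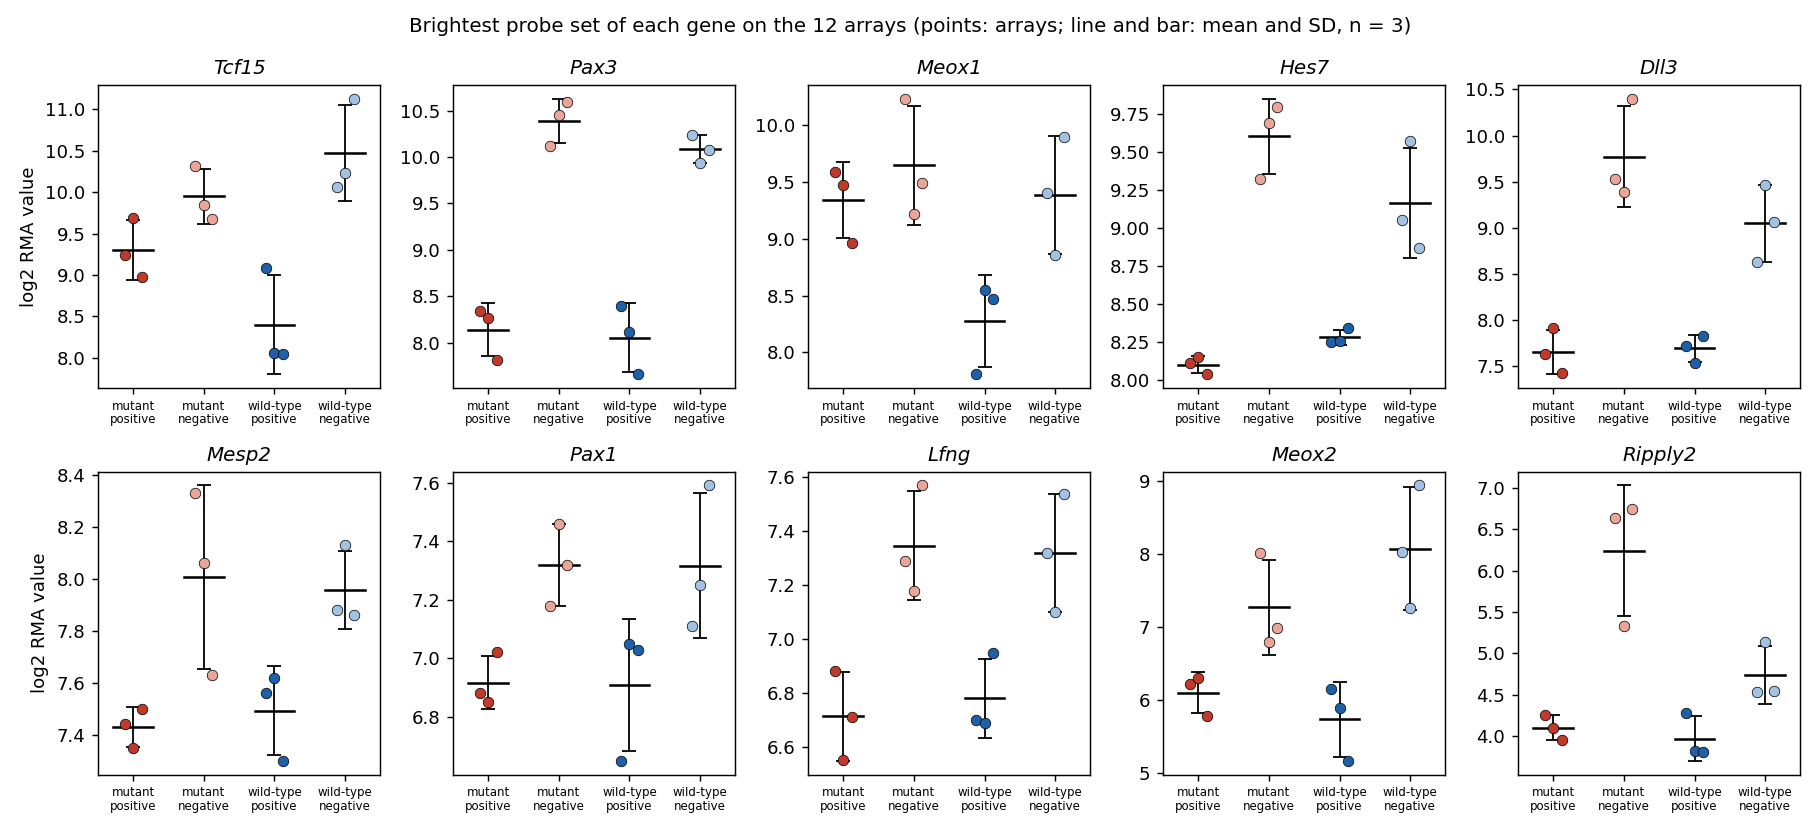
Log2 RMA value (y axis, a scale of its own in each panel) of the brightest probe set of each of the 10 genes in mutant positive, mutant negative, wild-type positive and wild-type negative cells, with a point for each array and the mean and SD of 3 arrays in black. All 6 positive arrays lay below all 6 negative arrays for Pax3, Hes7, Dll3, Meox2, Lfng, Mesp2, Pax1 and Ripply2. For Mesp2 the highest positive array was at 7.62 and the lowest negative array at 7.63. Mutant positive Meox1 and Tcf15 reached into the range of the negative arrays.

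**Figure D2:**
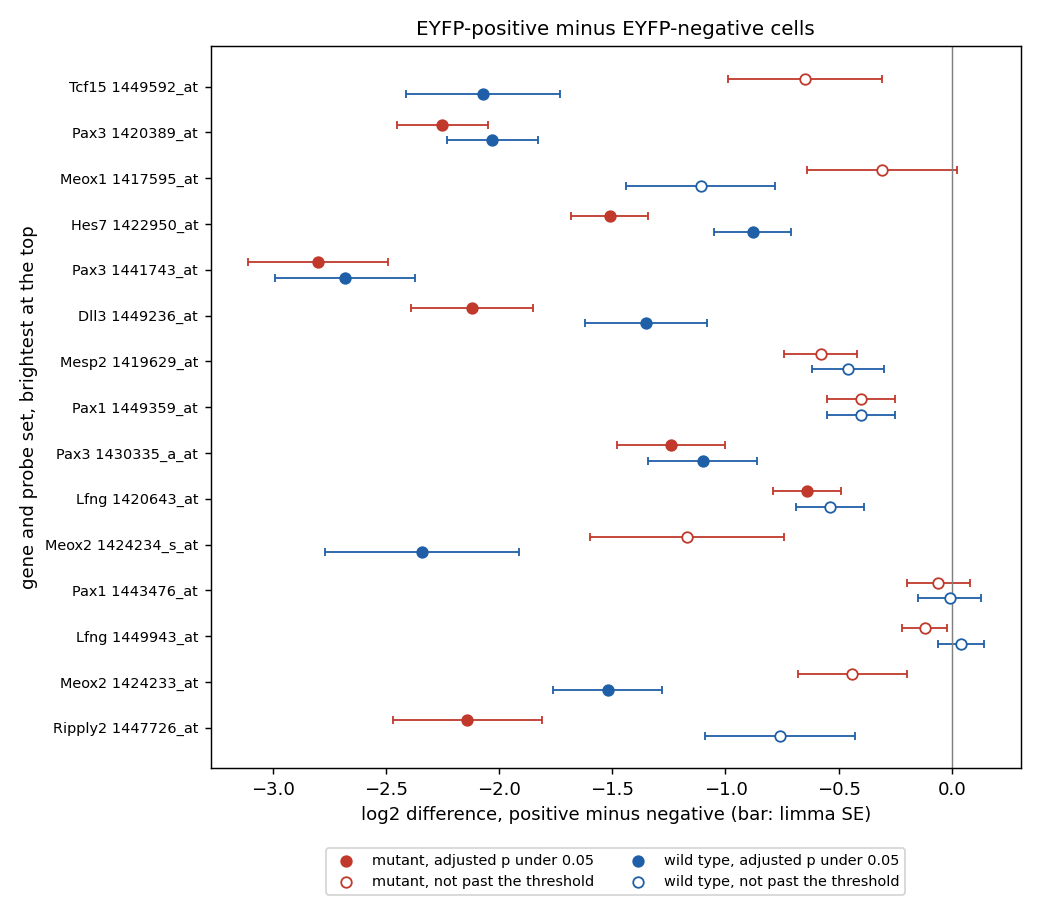
Log2 difference of positive minus negative cells (x axis) in mutants and wild types for each of the 15 probe sets (y axis, brightest at the top), with limma's SE as bars and filled points past an adjusted p of 0.05. The 3 Pax3 probe sets were past the threshold in both genotypes, Tcf15 and both Meox2 probe sets in wild types, and Ripply2 and the brighter Lfng probe set in mutants.

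Among the factors of formed somites, Pax3, a paired-box factor of the dermomyotome, was the gene that fell past the threshold in both genotypes. At its brightest probe set, 1420389_at, it had 8.34, 8.26 and 7.81 log2 in mutant positive cells, against 10.12, 10.45 and 10.59 in mutant negative cells. In wild types it had 8.39, 8.11 and 7.66 in positive cells, against 10.24, 9.94 and 10.07 in negative cells. The sort separated the arrays in both genotypes by gaps of 1.78 log2 in mutants and 1.55 in wild types, while the genotypes overlapped within the positive fraction. The fall was 4.75-fold in mutants (-2.25 ± 0.20 log2; limma's SE, 3 arrays in each group; adjusted p = 0.000406) and 4.09-fold in wild types (-2.03 ± 0.20, adjusted p = 0.000159).

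The other Pax3 probe sets moved the same way. The probe set 1441743_at had 7.73, 7.11 and 6.68 log2 in mutant positive, against 10.17, 9.54 and 10.22 in mutant negative cells, a difference of -2.80 ± 0.31 (limma, adjusted p = 0.0011). In wild types it had 6.97, 7.83 and 6.85 in positive, against 9.96, 9.69 and 10.03 in negative cells, a difference of -2.68 ± 0.31 (adjusted p = 0.00044). The dimmest, 1430335_a_at, differed by -1.24 ± 0.24 in mutants (adjusted p = 0.0188) and -1.10 ± 0.24 in wild types (adjusted p = 0.022). The mutant call of this dimmest Pax3 probe set did not hold with mutant positive array 3 left out (adjusted p = 0.0704), nor with mutant negative array 1 (0.0533) or 3 (0.0745) left out. It was also lost with only the mutant arrays fitted and without both wild-type arrays numbered 1 (highest adjusted p = 0.108). In wild types the call was lost with any negative array, or with positive array 1 or 2, left out (adjusted p from 0.0606 to 0.0821). Without both wild-type arrays numbered 1 the wild-type call was lost too (adjusted p = 0.169). Across the 12 arrays the 3 Pax3 probe sets correlated at r = 0.87 to 0.96, as a description of probe sets that share the arrays and the sort.

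Tcf15, the basic helix-loop-helix factor paraxis that somites need to become epithelial, was lower in positive cells past the threshold in wild types. Its log2 values were 9.09, 8.06 and 8.05 in wild-type positive cells, against 10.06, 10.23 and 11.13 in wild-type negative cells, a 4.21-fold fall (-2.07 ± 0.34, limma, adjusted p = 0.0053). Tcf15 had 9.24, 9.69 and 8.97 in mutant positive cells, against 10.32, 9.85 and 9.68 in mutant negative cells. The wild-type groups were apart, but the mutant groups overlapped by 0.01 log2, with mutant positive array 2 just above mutant negative array 3. The mutant difference of Tcf15 was -0.65 ± 0.34 (adjusted p = 0.549).

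Meox2, a homeobox factor of somites and muscle precursors, gave the same order of groups. At the brighter probe set, 1424234_s_at, it had 6.16, 5.89 and 5.17 log2 in wild-type positive cells, against 8.03, 7.26 and 8.94 in wild-type negative cells, a 5.05-fold fall (-2.34 ± 0.43, limma, adjusted p = 0.00985). This call was lost without both wild-type arrays numbered 1 (adjusted p = 0.0608). In mutants it had 6.22, 6.30 and 5.78 in positive, against 8.02, 6.80 and 6.99 in negative cells (-1.17 ± 0.43, adjusted p = 0.271). The mutant groups did not overlap, yet the difference did not pass. The dimmer Meox2 probe set, 1424233_at, lay below the 25th percentile of probe set means (5.67) on 10 of 12 arrays, and its difference is thus of uncertain size. It differed by -1.52 ± 0.24 in wild types (adjusted p = 0.00375) and by -0.44 ± 0.24 in mutants (adjusted p = 0.569).

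Meox1, the paralog of Meox2 and likewise a somite homeobox factor, passed in neither genotype. Its log2 values were 9.59, 9.47 and 8.96 in mutant positive cells, against 10.23, 9.22 and 9.49 in mutant negative cells, and the mutant groups overlapped (-0.31 ± 0.33, limma, adjusted p = 0.852). In wild types Meox1 had 7.81, 8.55 and 8.47 in positive cells, against 9.40, 8.86 and 9.89 in negative cells, which did not overlap (-1.11 ± 0.33, adjusted p = 0.0957). Wild-type positive cells were thus the lowest group of the 4 for Meox1.

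Pax1, a paired-box factor of the sclerotome, showed small differences. At the brighter probe set, 1449359_at, it ranged over 6.85 to 7.02 log2 in mutant positive, 7.18 to 7.46 in mutant negative, 6.65 to 7.05 in wild-type positive and 7.11 to 7.59 in wild-type negative cells. The positive arrays lay below the negative ones in both genotypes, but -0.40 ± 0.15 did not pass in mutants (limma, adjusted p = 0.28) or in wild types (adjusted p = 0.2). The other Pax1 probe set, 1443476_at, differed by -0.06 ± 0.14 in mutants and -0.01 ± 0.14 in wild types, and the 2 probe sets correlated at r = -0.17 over the 12 arrays.

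Among the clock and boundary genes, Hes7 and Dll3 passed in both genotypes, Ripply2 and Lfng in mutants, and Mesp2 in neither. Below are the 250 bases before the annotated start of the 5 members with a promoter entry whose expression passed in either genotype, with matches to a motif of the Notch cofactor RBPJ (GTGGGAA) and to E-boxes (CANNTG, the sites of basic helix-loop-helix factors such as Hes7, Mesp2 and Tcf15) in capitals. The windows are from RefSeq, build GRCm38.p6, each 5′ to 3′ on the gene's strand: Hes7 at chr11:69120203-69120452 (plus strand), Lfng at chr5:140607091-140607340 (plus), Dll3 at chr7:28301786-28302035 (minus), Ripply2 at chr9:87015287-87015536 (plus) and Meox2 at chr12:37108290-37108539 (plus).
Hes7: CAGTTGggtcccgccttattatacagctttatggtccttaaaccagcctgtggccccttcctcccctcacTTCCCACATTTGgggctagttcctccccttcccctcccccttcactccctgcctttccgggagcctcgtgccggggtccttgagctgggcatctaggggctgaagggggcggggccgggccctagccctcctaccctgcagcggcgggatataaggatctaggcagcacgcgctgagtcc
Lfng: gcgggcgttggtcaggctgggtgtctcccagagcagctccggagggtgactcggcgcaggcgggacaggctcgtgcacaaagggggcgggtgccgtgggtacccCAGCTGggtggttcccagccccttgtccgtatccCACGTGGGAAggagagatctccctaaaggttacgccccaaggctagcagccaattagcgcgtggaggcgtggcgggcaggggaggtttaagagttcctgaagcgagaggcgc
Dll3: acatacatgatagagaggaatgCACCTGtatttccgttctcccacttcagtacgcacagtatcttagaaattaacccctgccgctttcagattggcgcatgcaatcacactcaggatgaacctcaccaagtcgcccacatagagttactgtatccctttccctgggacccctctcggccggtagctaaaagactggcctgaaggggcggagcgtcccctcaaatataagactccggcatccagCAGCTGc
Ripply2: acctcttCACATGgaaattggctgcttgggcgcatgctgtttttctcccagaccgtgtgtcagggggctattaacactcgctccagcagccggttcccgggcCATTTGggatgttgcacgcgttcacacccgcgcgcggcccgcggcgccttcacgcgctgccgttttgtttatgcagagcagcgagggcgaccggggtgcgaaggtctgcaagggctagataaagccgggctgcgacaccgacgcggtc
Meox2: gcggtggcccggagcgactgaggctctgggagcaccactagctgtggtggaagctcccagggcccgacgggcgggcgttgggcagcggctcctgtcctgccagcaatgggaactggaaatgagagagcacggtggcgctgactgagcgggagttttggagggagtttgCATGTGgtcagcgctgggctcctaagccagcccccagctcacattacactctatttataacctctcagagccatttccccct
Promoter windows were found for 7 of the 10 genes, and both strands of each 300-base window (these 250 bases and 50 after the start) were searched. The RBPJ motif was in 2 of 7, those of Lfng (bases -109 to -103 from the start) and Hes7 (-180 to -174, on the opposite strand), and in 6.38% of all 32851 windows. In Lfng it overlaps an E-box to give the joined run of capitals CACGTGGGAA, and in Hes7 it shares a base with an E-box. E-boxes were in 6 of 7 member windows and in 72.3% of all windows. Hes-type sites (CACGNG, which overlap E-boxes of the form CACGTG) were in 4 of 7, against 27.5% of all windows. The T-box motif AGGTGT was in 1 of 7, that of Mesp2, against 13.7%, and the ETS-type motif CCGGAAG in 0 of 7, against 8.86%. A match is a description of letters and not a binding site.

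Hes7, the oscillating repressor with these RBPJ-type letters upstream, had 8.11, 8.15 and 8.04 log2 in mutant positive cells, against 9.32, 9.69 and 9.79 in mutant negative cells. In wild types it had 8.25, 8.26 and 8.34 in positive cells, against 9.05, 9.57 and 8.87 in negative cells. The positive arrays were tight in both genotypes (SD 0.05 in each), and the groups did not overlap. The fall was 2.84-fold in mutants (-1.51 ± 0.17, limma, adjusted p = 0.00126) and 1.84-fold in wild types (-0.88 ± 0.17, adjusted p = 0.0133). Without both wild-type arrays numbered 1 the wild-type call of Hes7 was lost (-0.92 ± 0.23, adjusted p = 0.0971).

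Dll3, a divergent Notch ligand that damps Notch signalling within the cell that makes it, had 7.63, 7.91 and 7.43 log2 in mutant positive cells, against 9.53, 9.39 and 10.40 in mutant negative cells. In wild types it had 7.72, 7.54 and 7.83 in positive cells, against 8.63, 9.46 and 9.06 in negative cells. Every positive array lay below every negative array. Dll3 fell by 2.12 ± 0.27 log2 in mutants (limma, adjusted p = 0.00231) and by 1.35 ± 0.27 in wild types (adjusted p = 0.0155). In wild types Dll3 no longer passed with positive array 2 left out (adjusted p = 0.0533), or with negative array 2 (0.0697) or 3 (0.0574) left out.

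Ripply2, a corepressor that ends Mesp2 activity at the boundary, was dim, with 10 of 12 arrays below the 25th percentile of probe set means, so the size of its differences is uncertain. It had 4.26, 4.10 and 3.95 log2 in mutant positive cells, against 6.64, 5.33 and 6.75 in mutant negative cells, a 4.41-fold fall (-2.14 ± 0.33, limma, adjusted p = 0.00599). In wild types it had 4.28, 3.82 and 3.81 in positive cells, against 4.53, 5.14 and 4.54 in negative cells, and the difference of -0.76 ± 0.33 did not pass (adjusted p = 0.3). Mutant negative arrays 1 and 3 were thus the only ones above 6 log2 for Ripply2. The mutant call was lost when only the mutant arrays entered the fit (adjusted p = 0.0613).

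Lfng, a glycosyltransferase that modifies Notch receptors, had 6.88, 6.55 and 6.71 log2 in mutant positive cells, against 7.29, 7.18 and 7.57 in mutant negative cells at its brighter probe set, 1420643_at. In wild types that probe set had 6.70, 6.69 and 6.95 in positive cells, against 7.32, 7.10 and 7.54 in negative cells. Neither pair of groups overlapped. The mutant difference was at the threshold (-0.64 ± 0.15, limma, adjusted p = 0.0499), a call lost without any of the 3 mutant positive arrays, the 3 mutant negative arrays, the 3 wild-type positive arrays or wild-type negative array 1 (adjusted p from 0.0539 to 0.186) and under 15 of 22 alternatives in all. The wild-type difference of -0.54 ± 0.15 was of similar size and did not pass (adjusted p = 0.0729). It did pass with the brightest probe set per gene (adjusted p = 0.0456) and with either replicate block (lowest adjusted p = 0.0247). The interaction estimate was -0.10 ± 0.21 (adjusted p = 0.944). The dimmer Lfng probe set, 1449943_at, spanned 0.33 log2 over all 12 arrays and differed by -0.12 ± 0.10 in mutants and 0.04 ± 0.10 in wild types.

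Mesp2, the basic helix-loop-helix factor of the forming boundary, had a narrow range. Its log2 values ran from 7.35 to 7.50 in mutant positive, 7.63 to 8.33 in mutant negative, 7.30 to 7.62 in wild-type positive and 7.86 to 8.13 in wild-type negative cells. The groups were apart in both genotypes, but -0.58 ± 0.16 in mutants (limma, adjusted p = 0.12) and -0.46 ± 0.16 in wild types (adjusted p = 0.18) did not pass. Without mutant negative array 3 the mutant difference of Mesp2 passed (-0.76 ± 0.14, adjusted p = 0.028).

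Whether the sort difference depended on genotype was tested with an interaction term, mutants minus wild types. No member probe set passed (0 of 15; 1.27% of all probe sets were called), and 4 of 15 had an unadjusted p under 0.05, where 9.65% of all probe sets did. Those 4 were Tcf15 (1.42 ± 0.49 log2, adjusted p = 0.3), the dimmer Meox2 probe set (1.08 ± 0.34, adjusted p = 0.233), Ripply2 (-1.38 ± 0.47, adjusted p = 0.292) and Hes7 (-0.62 ± 0.24, adjusted p = 0.397). Of the other members, Meox1 had an interaction estimate of 0.80 ± 0.46, the brighter Meox2 probe set one of 1.17 ± 0.61 and Dll3 one of -0.77 ± 0.38. The estimates for the 3 Pax3 probe sets (-0.22, -0.13 and -0.14), both Pax1 probe sets (0.01 and -0.04), both Lfng probe sets (-0.10 and -0.16) and Mesp2 (-0.11) were smaller than any of these. Estimates thus differed in sign among the somite factors, and none passed. Without mutant negative array 2, which had the lowest Ripply2 value of its group, the Ripply2 interaction passed (-1.83 ± 0.28, adjusted p = 0.0138). That array was also the one of its group with high Hbb-y (11.55 log2).

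The effect of the mutation within each fraction was compared next. In positive cells 0 of 15 member probe sets passed, where 4.42% of all probe sets were called, and 2 had an unadjusted p under 0.05, against 17.7% of all probe sets. These were Meox1, which had 9.59, 9.47 and 8.96 log2 in mutant positive, against 7.81, 8.55 and 8.47 in wild-type positive cells (1.06 ± 0.33, limma, adjusted p = 0.103), and Tcf15 (0.90 ± 0.34, adjusted p = 0.195). The arrays of the genotypes did not overlap at 2 of 15 member probe sets, Meox1 (higher in mutants) and Hes7 (lower, -0.18 ± 0.17, adjusted p = 0.644), where 21.8% of all probe sets did not overlap. For Tcf15, wild-type positive array 1 lay within the mutant range. Pax3 and Dll3 had nearly equal means, with Pax3 at 8.14 ± 0.29 in mutant and 8.05 ± 0.37 in wild-type positive cells and Dll3 at 7.65 ± 0.24 in mutant and 7.70 ± 0.15 in wild-type positive cells (SD, n = 3 each).

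In negative cells 0 of 15 member probe sets passed in limma, as did 0% of all 45037 probe sets. At an unadjusted p under 0.05 there were 4 member probe sets, against 4.71% of all probe sets, and under every alternative fit the count of members past the adjusted threshold was also 0. Ripply2 had the largest of these differences, with a mean of 6.24 ± 0.79 on mutant negative arrays and 4.73 ± 0.35 on wild-type negative arrays (SD, n = 3 each), 1.51 ± 0.33 log2 higher (adjusted p = 0.976). Its lowest mutant negative array, 5.33, lay above its highest wild-type negative array, 5.14. Ripply2 and the dimmer Meox2 probe set were the 2 of 15 whose arrays did not overlap, where 10.9% of all probe sets did not. Dll3 differed by 0.72 ± 0.27, Hes7 by 0.44 ± 0.17 and the dimmer Meox2 probe set by -0.89 ± 0.24, each with an adjusted p of 0.976.

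**Figure D3:**
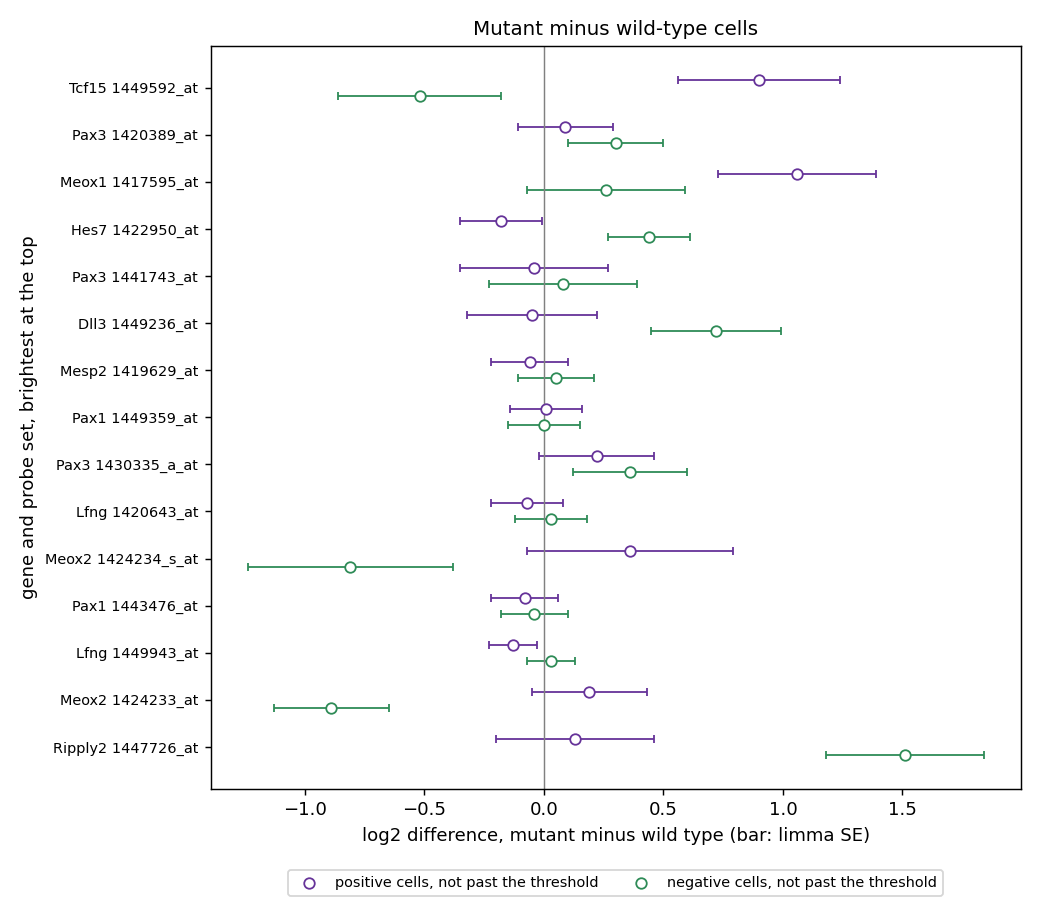
Log2 difference of mutant minus wild-type cells (x axis) in positive and in negative cells for each of the 15 probe sets (y axis, brightest at the top), with limma's SE as bars. No point is past the adjusted threshold, with Meox1 at 1.06 and Tcf15 at 0.90 farthest from 0 in positive cells, and Ripply2 at 1.51 and the dimmer Meox2 probe set at -0.89 in negative cells.

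Other genes of segmentation were set beside the members from a list of 24 presomitic and clock genes, 22 of them measured, each at its brightest probe set. In mutants 6 of 22 fell and 0 rose, where 4.11% of all genes were called, and the list median was -0.61 log2 against -0.031 over all genes. Tbx6, the T-box factor that keeps presomitic mesoderm from becoming neural, fell by 1.32 ± 0.23 (limma, adjusted p = 0.0119), and Dll1, the Notch ligand of the presomitic mesoderm, fell by 2.22 ± 0.16 (adjusted p = 0.000218). Hes5, a Notch target of the neural tube, fell by 4.28 ± 0.43 (adjusted p = 0.000663), and Nrarp, a feedback inhibitor of Notch, by 1.08 ± 0.18 (adjusted p = 0.0102). Cer1 and Cyp26a1 were the other two that fell in mutants. They, Axin2, Nkd1, Eya1, Kdr, Tek, Ets1, Krt8 and Sox17 are named from the counts, after their values were seen.

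In wild types 9 of 22 presomitic and clock genes fell and 1 rose, where 6.49% of all genes were called, and the list median was -0.44 against -0.017 over all genes. Tbx6 fell by 1.20 ± 0.23 (limma, adjusted p = 0.0122) and Dll1 by 1.37 ± 0.16 (adjusted p = 0.000511). The gene that rose was the receptor Notch1, which endothelial cells also use (0.96 ± 0.23, adjusted p = 0.037). Msgn1 and Mesp1, factors of nascent paraxial and cardiac mesoderm, differed by -0.33 ± 0.09 and -0.27 ± 0.13 in mutants and by -0.08 ± 0.09 and -0.11 ± 0.13 in wild types, and did not pass. Hes1, also on this list, passed in neither genotype. It differed by 0.02 ± 0.16 in mutants (adjusted p = 0.991) and by -0.48 ± 0.16 in wild types (adjusted p = 0.151).

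A list of 18 formed somite, dermomyotome and sclerotome genes had 17 measured. In mutants 1 fell and 1 rose, where 4.11% of all genes were called, with a list median of -0.09. In wild types 6 fell and 0 rose, where 6.49% of all genes were called, with a list median of -1.04. With the mean of all probe sets per gene, 4 passed in mutants and 10 in wild types. Pax7, the dermomyotome paralog of Pax3, fell in both genotypes, by 0.81 ± 0.13 in mutants (limma, adjusted p = 0.00896) and by 0.97 ± 0.13 in wild types (adjusted p = 0.00157). Aldh1a2, the enzyme that makes retinoic acid in somites and other mesoderm, differed by -0.89 ± 0.38 in mutants (adjusted p = 0.395) and fell by 2.40 ± 0.38 in wild types (adjusted p = 0.00422). The gene that rose in mutants was Twist1, a factor of mesenchyme (1.50 ± 0.18, adjusted p = 0.00176).

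Between mutant and wild-type positive cells the 22 presomitic and clock genes went both ways, with 2 higher and 3 lower, where 6.27% of all genes were called in either direction, and 11 in all passed with the mean of all probe sets per gene. Axin2 (1.01 ± 0.14, limma, adjusted p = 0.00226) and Nkd1 (1.05 ± 0.26, adjusted p = 0.0466), feedback inhibitors of Wnt signalling, were higher in mutants. Notch1 (-1.74 ± 0.23, adjusted p = 0.00134), Hes5 (-2.14 ± 0.43, adjusted p = 0.0175) and Nrarp (-1.21 ± 0.18, adjusted p = 0.00341) were lower. Hes1 differed by 0.59 ± 0.16 and did not pass (adjusted p = 0.0685). The interaction passed for 3 of 22, against 1.86% of all genes, above 0 for Axin2 (1.03 ± 0.20, adjusted p = 0.0324) and below 0 for Notch1 (-1.63 ± 0.32, adjusted p = 0.0351) and Nrarp (-1.52 ± 0.26, adjusted p = 0.0154).

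In the same comparison, where 6.27% of all genes were called, 4 of the 17 formed somite genes were higher in mutant than in wild-type positive cells and 0 lower. They were Pdgfra, a growth factor receptor of paraxial and other mesoderm (1.93 ± 0.18, limma, adjusted p = 9.66e-05), Twist1 (1.25 ± 0.18, adjusted p = 0.00282), Tbx18, a T-box factor of the front part of each somite that is also used in the heart (1.34 ± 0.29, adjusted p = 0.0246), and Eya1 (1.26 ± 0.19, adjusted p = 0.00328). The interaction passed for 3 of 17, against 1.86% of all genes, with 0 estimates of the list below 0. They were Pdgfra (1.93 ± 0.25, adjusted p = 0.00265), Twist1 (1.81 ± 0.26, adjusted p = 0.00479) and Eya1 (1.63 ± 0.27, adjusted p = 0.0119). Several genes of the list serve tissues other than somites. Foxc1 and Foxc2, forkhead factors of somites and vessels, passed in no comparison, and neither did Uncx, Pax9 and Myf5.

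**Figure D4:**
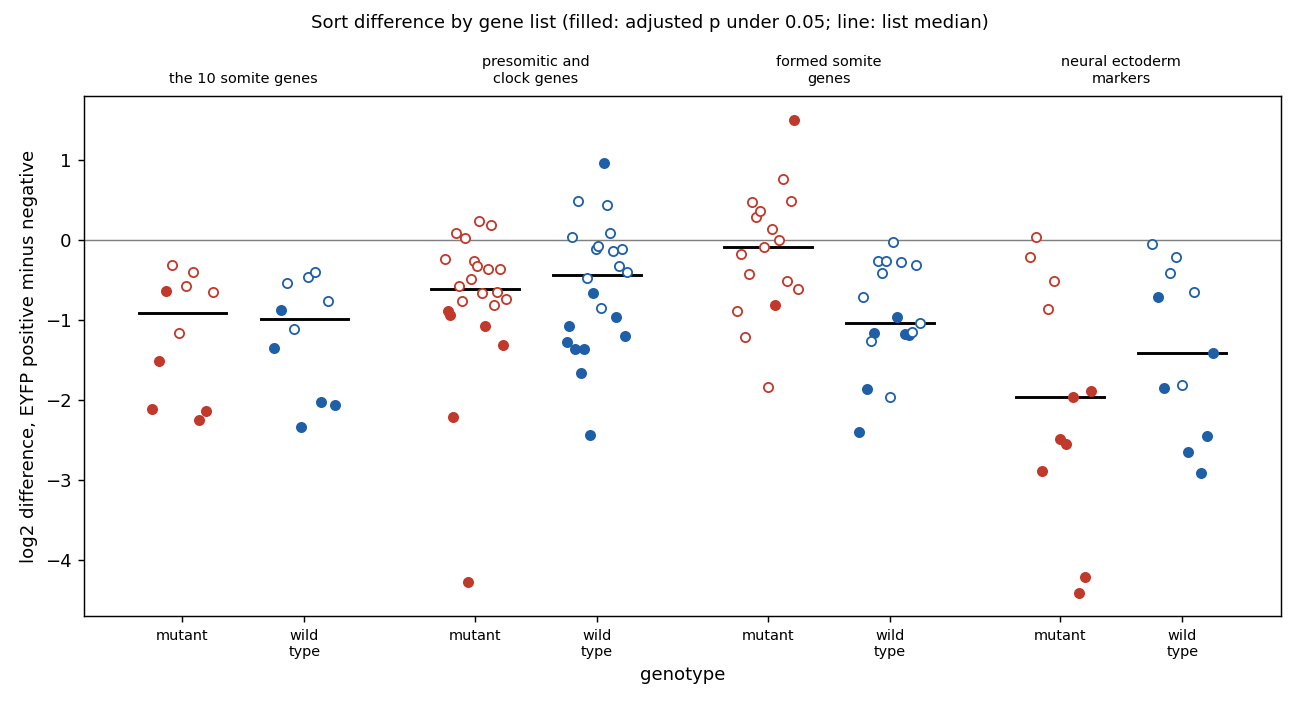
Log2 difference of positive minus negative cells (y axis) in mutants and wild types for the 10 members, 22 presomitic and clock genes, 17 formed somite genes and 11 neural ectoderm markers, with a point for each gene's brightest probe set, filled past an adjusted p of 0.05, and a line at each list median. The formed somite genes had a median of -0.09 in mutants and -1.04 in wild types, and the neural markers -1.97 in mutants and -1.42 in wild types.

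Markers of other tissues were compared across the sort as well, among them the neural tube and neural crest, which use some of the 10 genes. Over 11 neural ectoderm markers, the mean log2 level per array was 6.87 to 7.71 in mutant positive, 9.13 to 9.29 in mutant negative, 7.06 to 7.90 in wild-type positive and 8.85 to 9.07 in wild-type negative cells, and 7 of 11 fell in mutants and 6 of 11 in wild types. Pax6, a factor of the neural tube, fell by 2.55 ± 0.23 in mutants (limma, adjusted p = 0.00039) and by 2.65 ± 0.23 in wild types (adjusted p = 4.92e-05). The neural marker Sox2 differed by -4.21 ± 0.58 in mutants (adjusted p = 0.00337) and by -2.45 ± 0.58 in wild types (adjusted p = 0.0373). Over 7 neural crest markers the mean level was 7.74 to 7.83 in mutant positive, 8.61 to 9.00 in mutant negative, 8.03 to 8.24 in wild-type positive and 8.83 to 8.98 in wild-type negative cells. Over 12 cardiac and lateral plate markers it was 10.73 to 10.81 in mutant positive, 9.20 to 9.34 in mutant negative, 9.22 to 9.61 in wild-type positive and 9.45 to 9.78 in wild-type negative cells. Olig2 was the neural marker that lay below the 25th percentile of probe set means on all 12 arrays, and no neural crest or cardiac marker did so on all arrays of a group. Of the neural crest markers 3 of 7 fell in mutants, and 4 fell and 1 (Ets1) rose in wild types. The crest marker Sox10 passed in neither (-0.93 ± 0.24, adjusted p = 0.0771 in mutants, and -0.57 ± 0.24, adjusted p = 0.28 in wild types). Of the cardiac markers 10 of 12 rose in mutants and 1 fell in wild types. The cardiac marker Tnnt2 differed by 1.99 ± 0.37 in mutants (adjusted p = 0.017) and by -0.40 ± 0.37 in wild types (adjusted p = 0.729). Beside these marker counts, 4.11% of all genes were called in mutants and 6.49% in wild types. The part of these tissues in the members' differences was not tested.

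The mean level over the 10 members themselves, each at its brightest probe set, was 7.22 to 7.46 log2 in mutant positive, 8.34 to 8.70 in mutant negative, 7.06 to 7.26 in wild-type positive and 8.23 to 8.55 in wild-type negative cells. The mean over 10 endothelial markers ran the other way in wild types, at 9.71 to 10.05 in wild-type positive and 6.33 to 6.39 in wild-type negative cells, and was at 6.90 to 7.09 in mutant positive and 6.37 to 6.52 in mutant negative cells. In mutants 2 of 10 endothelial markers rose, the VEGF receptor Kdr (2.57 ± 0.17, limma, adjusted p = 0.000141) and the angiopoietin receptor Tek (2.04 ± 0.28, adjusted p = 0.00334), and in wild types 10 of 10 rose. The endothelial marker Cdh5 differed by 0.10 ± 0.11 in mutants (adjusted p = 0.863) and by 5.44 ± 0.11 in wild types (adjusted p = 1.45e-09). Between mutant and wild-type positive cells 9 of 10 were lower, and Kdr did not pass (-0.54 ± 0.17, adjusted p = 0.106). The part of these cells in the members' differences was not tested. Of 10 surface epithelium and gut endoderm markers, 5 fell and 1 rose in each genotype. Epcam was among those that fell, with -3.21 ± 0.43 in mutants (adjusted p = 0.00297) and -4.23 ± 0.43 in wild types (adjusted p = 0.000164). The gene that rose was Krt8 in mutants (1.13 ± 0.18, adjusted p = 0.00655) and Sox17 in wild types (2.88 ± 0.40, adjusted p = 0.00157). Of 7 yolk sac endoderm markers 0 passed in mutants and 1 fell in wild types, and of 5 primitive erythroid markers 0 passed in mutants and 4 rose in wild types. Of all genes, 4.11% were called in mutants, 6.49% in wild types and 6.27% between mutant and wild-type positive cells.

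The members were also compared in their pattern over the 12 arrays, as a description, since all pairs share the sort and the arrays. Hes7 and Dll3 were most alike (r = 0.96), followed by Pax3 with each of them and Tcf15 with Meox2 (r = 0.92 for these 3 pairs). Meox1 was least like Hes7 (r = 0.38). The other genes were searched with clone-type names, such as those ending in Rik, left out. Among them, those most like Pax3 were Prom1 (r = 0.979), Tfap2c (0.976) and Fgfbp3 (0.971). Those most like Dll3 were Dtx4 (0.956), Apba2 (0.943) and the neural factor Sox3 (0.943). For Hes7 they were Tmprss13 (r = 0.959), Scube2 (0.953) and Miat (0.952). For Meox2 they were Vtn (r = 0.954), the muscle factor Myf5 (0.926) and the guidance cue Ntn1 (0.910), and for Tcf15 they were Ntn1 (0.929), the ephrin receptor Epha4 (0.927) and the adhesion molecule Ncam1 (0.911).

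For Meox1 the most alike genes were Hoxb2 (r = 0.931), Nkain1 (0.930) and Elovl4 (0.925), and for Lfng they were Sfrp2 (0.954), Minar2 (0.944) and Hoxa2 (0.940). For Mesp2 they were Fut9 (r = 0.927), Mapk13 (0.922) and Krt7 (0.917), and for Ripply2 they were Lemd1 (0.946), Rftn1 (0.930) and Wnt10a (0.925). Pax1 spanned 0.94 log2 at its brightest probe set and was not compared, because a span of over 1 log2 was required of a member. No span was required of the genes matched to the members, some of which varied little, such as Wnt10a (0.52 log2) and Tmprss13 (0.54).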

How the data were processed

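The 12 oligonucleotide arrays, 3 per group, limit the precision by their number. The deposited values are log2 expression values that the authors computed with RMA, according to the submitters' processing notes. Its settings were not given in the sources used here. Of 45101 probe sets, 64 controls were left out. The platform table gave 34945 probe sets 1 symbol and 932 several, and did not list 9160. RefSeq (GRCm38.p6) changed 0 member symbols.

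The log2 values were fitted with limma 3.58.1 (R 4.3.3; lmFit, contrasts.fit, eBayes; two-sided) in a model of the 4 groups, with 8 residual degrees of freedom. P-values were adjusted by Benjamini-Hochberg over 45037 probe sets within each of 5 contrasts, and errors of differences are limma's SE. List genes were read at the probe set with the highest mean (18193 genes). The fit was run on simulated data with noise independent between arrays. That run does not cover the correlation of same-numbered arrays given next.

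Across probe sets, deviations of same-numbered arrays from their group means correlated at 0.659, 0.414 and 0.52 between the mutant fractions and at 0.198, 0.0696 and 0.167 between the wild-type fractions. The numbers were therefore taken to pair the mutant arrays, a reading that rests on the data alone. In wild types, Eif2s3y set both arrays numbered 1 apart from all others, which ties those arrays to each other. Whether the numbers 2 and 3 pair the wild-type arrays was not settled.

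The members and lists were chosen with earlier results of these data known. Named were all member probe sets, a fixed set of list genes and, for each member that spanned over 1 log2, the 3 genes with the highest Pearson r to it. Clone-type names were left out of that search. The alternatives were the brightest probe set or the mean per gene, no dim probe sets, quantile normalization, replicate blocks, array weights, a trended robust variance, only the groups compared, each array left out, and both wild-type arrays numbered 1 left out.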

Additional observations from a re-analysis of the deposited data

How the results depend on the processing

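All 75 member differences were recomputed under 22 alternatives where these could be run (1575 values). Of the 15 called differences, 0 changed sign and 32 recomputed values lost the call. 5 recomputed values gained a call, and 51 recomputed values of uncalled differences had another sign. The count of member probe sets called in wild types was 5 without both wild-type arrays numbered 1, against 8. In mutants the count was 4 with only the groups compared, against 7. With the mean of all probe sets per gene, a fit with 10 members, 5 genes were called in wild types. In the main fit 5 of 10 genes were called there at the brightest probe set. With 1 array left out, the counts ran from 6 to 8 in wild types, from 5 to 7 in mutants and from 0 to 1 for the interaction, where 1 passed without mutant negative array 2 (Ripply2), and were 0 for both comparisons between genotypes. The mean of all probe sets per gene also called 10 formed somite genes in wild types, against 6, and 4 in mutants, against 2, and 11 presomitic and clock genes between mutant and wild-type positive cells, against 5. The cause was not tested. With the replicate block within a genotype, 7 member probe sets were called in mutants, 9 in wild types and 0 for the interaction and in both comparisons between genotypes, and with the replicate number as a block over 4 groups these counts were the same. The block changed no mutant call. In wild types, Eif2s3y ties the arrays numbered 1 to each other, while the pairing of numbers 2 and 3 was not settled. There Lfng passed with either block (limma, adjusted p = 0.0313 and 0.0247) and with 1 probe set per gene (0.0456). Differences at dim probe sets (Ripply2 and the dimmer Meox2 probe set) are limited by background, which the values do not give.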
